A study of Bos taurus with 8 samples.

Results

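The genes described here are 9 genes of retinoid uptake and signalling in bovine embryonic stem cells (bESCs), taken from 32637 genes with counts: STRA6, RBP4, CRABP1, CRABP2, RARA, RARB, RARG, CYP26A1 and ALDH1A2. They were chosen by name when the difference of STRA6 between feeder-free and MEF cultures in these same libraries was already known. Every member's difference between the conditions is therefore given as a description, with no test. Of the 9 members, 8 had enough counts to be fitted among 15744 tested genes, and ALDH1A2 did not.

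RNA was sequenced from 4 lines of bESCs, named A, C, D and E, all with the XX genotype in the labels. Each line was sampled once on mouse embryonic fibroblast feeders (MEF) at passages 15 to 17 and once after transition to feeder-free culture on vitronectin at passages 20 to 22, giving 4 libraries per condition and 8 in all. Both conditions were kept in 5% O2 and in NBFR, a medium built on N2 and B27 supplements with FGF2 and the WNT inhibitor IWR1, and the sample titles carry the same medium name, NBFRA, in both. Each line traces back to an early or full blastocyst, and the stage for a given line is not stated in the sources used here. The study's methods name activin A as added in the feeder-free cultures. Feeder removal, activin A as far as MEF cultures lacked it, and the higher passage go together in every line and cannot be told apart. The study's methods mention sequencing batches and no correction for them. Batch was not a term in any fit here, and whether it went with condition was not tested. A condition is here a set of 4 lines and a line is a pair of libraries, so the spread is that between lines.

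Retinol, or vitamin A, travels in blood bound to RBP4, and STRA6 is the membrane receptor that takes it from RBP4 into cells. Inside the cell, retinol is oxidised to retinal and then, by retinaldehyde dehydrogenases such as ALDH1A2, to retinoic acid. The cellular binding proteins CRABP1 and CRABP2 carry retinoic acid, the latter to the nucleus, where the receptors RARA, RARB and RARG pair with retinoid X receptors (RXRs) on DNA. CYP26A1 breaks retinoic acid down. STRA6, RARB and CYP26A1 are classical genes induced by retinoic acid in embryonic stem and carcinoma cells, and RARA and RARG are the receptors commonly found in undifferentiated pluripotent cells. Standard B27 supplement holds a vitamin A ester, and the version used was not stated in the sources used here.

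Library totals were 44268717 to 54296425 counts on MEF and 49671478 to 102351560 feeder-free, the highest being feeder-free line D. Of the listed pluripotency markers, 7 of 8 were in the file and their summed level was 4012 to 4509 CPM on MEF and 3496 to 3624 CPM feeder-free, with none called different between the conditions. CPM gives the counts of a gene per 1e6 counts of its library after TMM scaling. It is not divided by transcript length, so the level of a gene was compared between libraries. Shares and sums over several genes are of counts and not of molecules. Across the tested genes, 114 were higher feeder-free and 158 lower, at an adjusted P-value below 0.05 and a change of at least 1.5-fold in edgeR's quasi-likelihood test, which is 0.724% and 1.00% of them. In the same test, 6 of the 7 pluripotency markers had log2 fold changes below 0. An unadjusted p below 0.05 was found for 5 of the 7, beside 21.6% of all tested genes. SALL4 (log2 fold change -0.580, adjusted P-value = 0.0426) fell just short of the 1.5-fold threshold. Among the members, 1 was called higher (STRA6) and 1 lower (RARB), which, given the choice of genes, is only a description. Both calls were absent when any 1 library was left out other than feeder-free A, and present without feeder-free A. Where they were absent, the whole table had at most 1 gene called higher and at most 5 called lower. Over 13 alternatives, the log2 fold change was 1.86 to 2.30 for STRA6 and -2.05 to -1.79 for RARB. In bulk RNA, fewer cells of a type and less RNA per cell cannot be told apart.

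STRA6 lies on chromosome 21 at 34478073 to 34507705 (ARS-UCD2.0). It stood at 15.4, 21.4, 34.6 and 23.1 CPM on MEF in lines A, C, D and E and at 44.9, 97.3, 136 and 115 CPM feeder-free. The lowest feeder-free library, line A, lay above the highest MEF library, line D, so the conditions did not overlap. Mean STRA6 level was 23.6 ± 8.03 CPM on MEF and 98.3 ± 38.9 CPM feeder-free (SD, n = 4), a 4.16-fold difference, or 2.06 on the log2 scale (SE 0.35). The log2 ratio within a line was 1.54 in A, 2.18 in C, 1.97 in D and 2.32 in E. STRA6 was thus the member with the largest difference upwards, and it was higher feeder-free in each of the 4 lines.

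**Figure D1:**
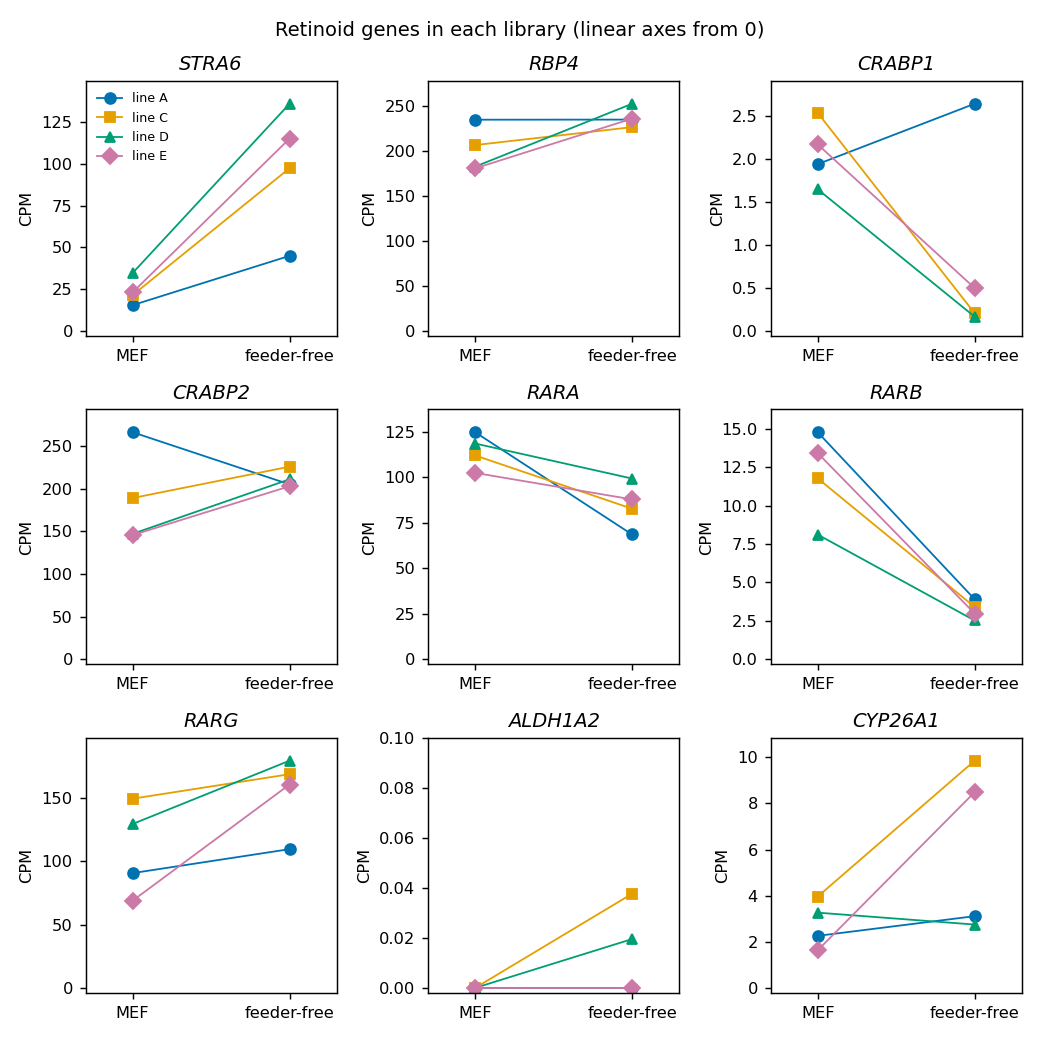
Level of the 9 retinoid genes in each library, in CPM on linear axes starting at 0, with 1 panel per gene and a line joining the MEF and feeder-free libraries of the same bESC line. STRA6 was higher and RARB lower in each of the 4 lines without overlap, CRABP1 split line A from the other lines, and ALDH1A2 had at most 2 counts in any library (lines A and E coincide at 0).

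RBP4, the serum carrier of retinol, lies on chromosome 26 at 14896208 to 14902404. It measured 235, 206, 182 and 181 CPM on MEF in lines A, C, D and E, and 235, 226, 252 and 236 CPM feeder-free. The conditions overlapped through line A, which had the same rounded level in both. The other 3 lines were higher feeder-free, by 0.13 in C, 0.47 in D and 0.38 in E on the log2 scale. Means were 201 ± 25.3 and 237 ± 10.9 CPM (SD, n = 4), with a log2 fold change of 0.24 (SE 0.12), so the ligand-carrier was near its MEF level while its receptor STRA6 was several-fold higher.

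Of the cellular carriers, CRABP2 on chromosome 3 (14125444 to 14130428) was present in every library and overlapped between conditions. Its levels were 266, 189, 147 and 146 CPM on MEF in lines A, C, D and E, and 205, 226, 211 and 203 CPM feeder-free. Line A was the highest MEF library and was lower feeder-free, whereas C, D and E were higher. The MEF libraries were more spread (187 ± 56.4 CPM) than the feeder-free ones (211 ± 10.3 CPM, SD, n = 4), and the log2 fold change was 0.18 (SE 0.19).

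CRABP1, on chromosome 21 at 30733397 to 30740592, was low on MEF and divided the lines feeder-free. On MEF it had 81, 140, 80 and 96 counts in lines A, C, D and E, or 1.95, 2.54, 1.65 and 2.17 CPM. Feeder-free it had 132 counts in line A (2.65 CPM) against 11 in C, 17 in D and 26 in E (0.207, 0.166 and 0.500 CPM). In CPM, feeder-free A was narrowly the highest of the 8 libraries, while by count MEF C was, and feeder-free C, D and E were the lowest on either scale. The log2 ratio was 0.44 in line A but -3.41, -3.06 and -2.04 in C, D and E. Over the 4 lines the log2 fold change was -1.25 (SE 0.80), without feeder-free A it was -2.85, and with the line as a replicate block it was -2.12, so feeder-free A alone set much of this value.

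The MEF cultures contained mouse fibroblasts, and the study's methods state that reads of a pure MEF sample aligning to the cattle genome were removed from the counts on MEF, without saying how. Markers of fibroblasts were therefore read beside CRABP1. The 15 listed fibroblast genes were all in the file, 13 were tested and none was called. The block called 2 higher (COL3A1, POSTN) and 2 lower (COL1A2, PRRX1), beside 869 higher and 713 lower of all 15744 tested genes. The summed level of the 15 genes was 376 to 491 CPM on MEF and 206 to 1219 CPM feeder-free. Values above 0 on the log2 scale were found for 8 of the 13 and below 0 for the other 5. The former included the collagen gene COL3A1 (2.61, in the same direction in 4 of 4 lines), POSTN (2.26), LUM (1.16) and FBN1 (0.90). On the other side, COL1A2, a collagen chain, had 38, 253, 225 and 30 counts on MEF in lines A, C, D and E and 0, 22, 18 and 2 feeder-free. The mesenchymal factor PRRX1 had 48, 141, 127 and 45 counts on MEF and 0, 3, 62 and 2 feeder-free, and TWIST2, another such factor, had 3, 26, 32 and 2 on MEF and 0 in every feeder-free library. In feeder-free A, with the highest CRABP1 in CPM, COL1A2, PRRX1 and TWIST2 were all at 0, as were FAP and POSTN. FAP, like TWIST2, was at 0 in every feeder-free library, and POSTN was also at 0 in MEF A and MEF E. Other listed fibroblast genes were present. COL1A1 had 5732 counts in feeder-free A, and FBN1, LUM and PDGFRB had at least 826, 796 and 552 in every feeder-free library. COL1A1 carried the summed level, which without it was 77.8 to 109 CPM on MEF and 67.6 to 201 CPM feeder-free. On MEF, lines C and D had the most COL1A2, PRRX1 and TWIST2, whereas CRABP1 was highest in C and lowest in D. The part of feeder RNA in the MEF values of CRABP1, or of any other gene lower feeder-free, was not tested. The effect of the read removal on MEF values was not tested either. This holds for genes higher feeder-free, such as STRA6, COL3A1 and LUM, as for those lower.

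**Figure D2:**
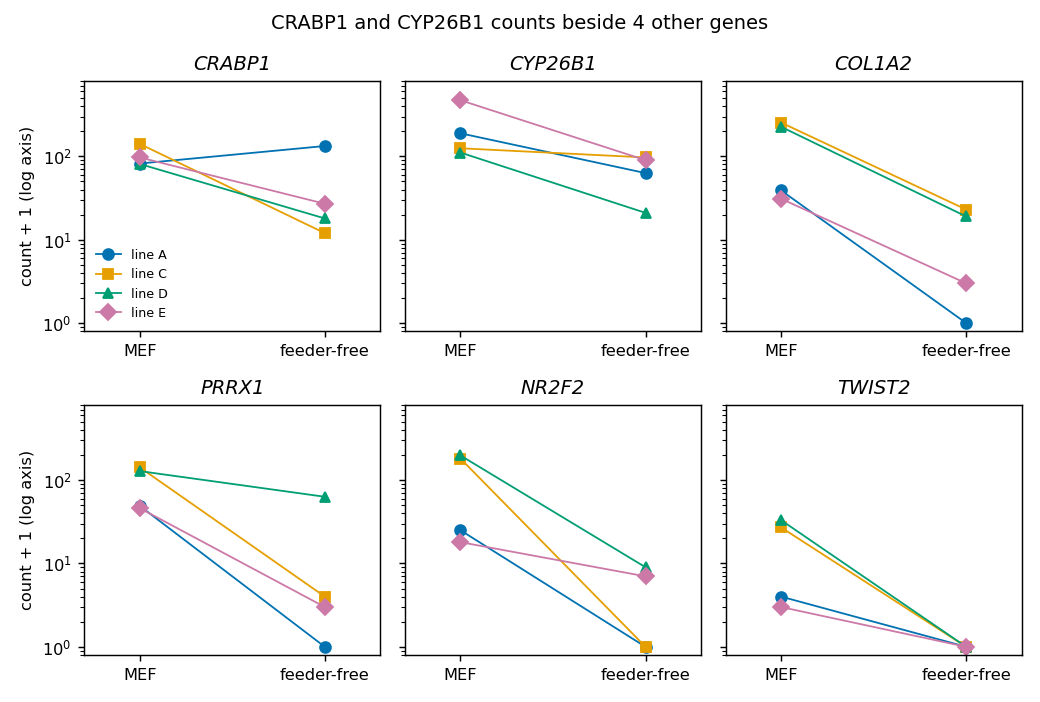
Counts plus 1 on a log axis, not adjusted for library size, for CRABP1, CYP26B1 and 4 further genes in the MEF and feeder-free library of each bESC line. Feeder-free A had 132 counts of CRABP1 and none of COL1A2, PRRX1, NR2F2 or TWIST2, and TWIST2 had none in any feeder-free library. The 4 further genes were lower feeder-free in each line, whereas 8 of the 13 tested fibroblast genes had log2 fold changes above 0. NR2F2 is from the list of retinoic acid responsive genes.

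The 3 retinoic acid receptors differed in direction. RARB, on chromosome 27 at 40196705 to 40792265, had 14.8, 11.8, 8.11 and 13.4 CPM on MEF in lines A, C, D and E, and 3.91, 3.41, 2.53 and 2.98 CPM feeder-free. Every feeder-free library lay below every MEF library. Means were 12.0 ± 2.87 and 3.21 ± 0.590 CPM (SD, n = 4), so RARB feeder-free was 0.267 of its MEF level, a log2 fold change of -1.91 (SE 0.24). The ratio was similar in all lines, from -2.16 in E to -1.67 in D. The part of feeder RNA in the MEF values of RARB was not tested. The RARB span overlaps 2 other annotated genes, TRNAG-GCC and LOC132344075, and the strand setting of the counting is not stated in the sources used here, so reads of overlapping genes could not be separated. TOP2B, a DNA topoisomerase gene 48 bases from RARB, was at -0.18 on the log2 scale and not called.

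RARA, on chromosome 19 at 40551174 to 40595283, had 125, 112, 119 and 102 CPM on MEF in lines A, C, D and E, and 68.6, 82.8, 99.3 and 87.9 CPM feeder-free. The highest feeder-free library, D, was just below the lowest MEF library, E, so the conditions did not overlap, but the difference was small. Means were 114 ± 9.55 and 84.7 ± 12.7 CPM (SD, n = 4), with a log2 fold change of -0.43 (SE 0.13), and line A had the widest ratio at -0.86. STRA6, RARA and RARB were the 3 of 8 tested members whose conditions did not overlap, beside 14.6% of all tested genes. Because the genes were selected on these conditions, nothing is read from that share.

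RARG, on chromosome 5 at 26774193 to 26794819, had 90.6, 149, 129 and 68.8 CPM on MEF in lines A, C, D and E, and 109, 169, 179 and 161 CPM feeder-free. It was higher feeder-free in each of the 4 lines, but feeder-free A lay below MEF C and D, so the conditions overlapped. Means were 110 ± 36.5 and 154 ± 31.0 CPM (SD, n = 4), with a log2 fold change of 0.50 (SE 0.25). The ratio was 1.22 in line E, which had the least RARG on MEF, and 0.18 to 0.47 in the other lines.

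With RARA and RARB lower and RARG higher, the make-up of receptor counts within a library differed between the conditions. RARG took 39.4, 54.7, 50.5 and 37.3% of the counts on the 3 genes on MEF in lines A, C, D and E, and 60.2, 66.2, 63.8 and 63.8% feeder-free. The feeder-free libraries were all above the MEF libraries and close to each other (63.5 ± 2.49% against 45.5 ± 8.46%, SD, n = 4). RARA took 49.3 ± 6.83% on MEF and 35.1 ± 2.14% feeder-free, and RARB 5.29 ± 1.88% and 1.39 ± 0.536%. Put per RARA count, there were 0.672 to 1.33 RARG counts on MEF and 1.60 to 2.04 feeder-free. These shares are of counts and not of molecules, because the lengths of the transcripts were not used.

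**Figure D3:**
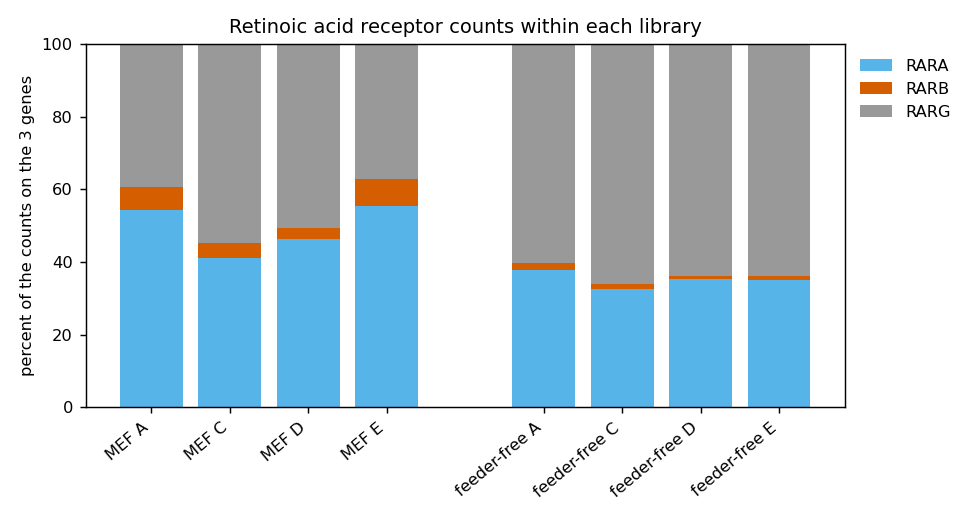
Percent of the counts on RARA, RARB and RARG that each receptor took, for each of the 8 libraries, stacked. RARG took 60.2 to 66.2% in the feeder-free libraries and 37.3 to 54.7% on MEF, and RARB was below 2.2% in each feeder-free library.

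CYP26A1, the retinoic acid hydroxylase, lies on chromosome 26, as RBP4 does, at 14416061 to 14419635. It had 2.26, 3.96, 3.26 and 1.63 CPM on MEF in lines A, C, D and E, and 3.11, 9.85, 2.75 and 8.49 CPM feeder-free. Only lines C and E stood clearly higher feeder-free, while A and D stayed within the MEF range. The log2 ratios were 0.46, 1.31, -0.25 and 2.35 in A, C, D and E, and the log2 fold change was 1.12 (SE 0.48) between means of 2.78 ± 1.04 and 6.05 ± 3.65 CPM (SD, n = 4). Feeder-free D had the highest STRA6 and the lowest RARB of the 8 libraries, and the lowest feeder-free CYP26A1. On MEF, line D also had the highest STRA6 and the lowest RARB, but not the lowest CYP26A1. Feeder-free E had both STRA6 (115 CPM) and CYP26A1 (8.49 CPM) high, and a relation between these genes was not tested.

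ALDH1A2, the retinaldehyde dehydrogenase of many embryonic tissues, lies on chromosome 10 at 52215057 to 52340290 and overlaps LOC112448651. It had 0 counts in all 4 MEF libraries and 0, 2, 2 and 0 counts feeder-free in lines A, C, D and E. A count of 0 allows up to 3 counts, which is 0.0293 to 0.0720 CPM in these libraries, so both conditions were at or under the floor and no fold is given. The limits cover counting error only.

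**Figure D4:**
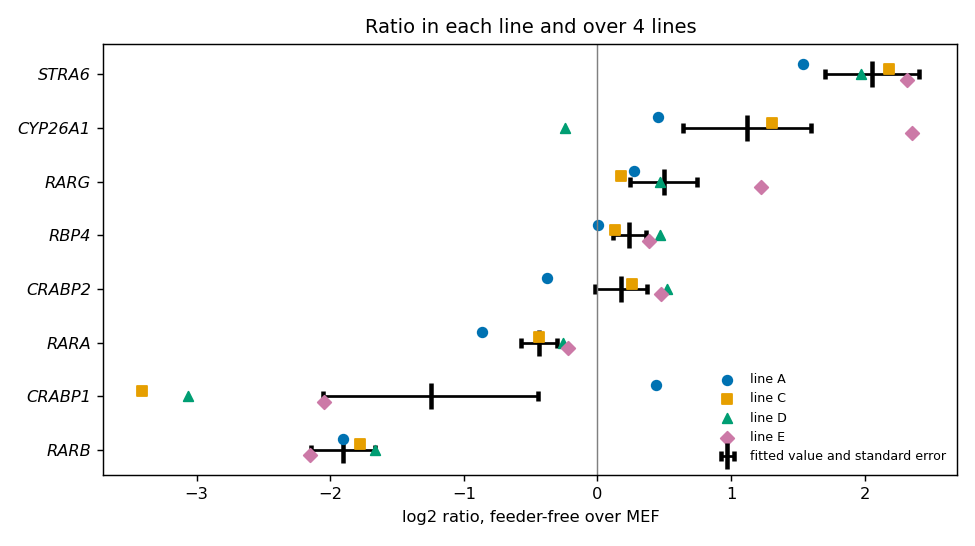
Log2 ratio of feeder-free over MEF for the 8 tested members, with 1 coloured marker per line and, in black, the value fitted over the 4 lines with its standard error. The markers of STRA6 (1.54 to 2.32) and RARB (-2.16 to -1.67) lay close together, whereas those of CRABP1 (-3.41 to 0.44) and CYP26A1 (-0.25 to 2.35) were spread on both sides of 0.

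The lines themselves offered a comparison that the choice of members had not used. With condition and line in the model, edgeR's F test of the 3 line terms called 11.8% of tested genes at an adjusted P-value below 0.05, and 1 of the 8 tested members, a share near that background. The member was STRA6 (F = 15.7, adjusted P-value = 0.0116). Its mean log2 CPM over both conditions ran from 4.72 in line A to 6.10 in line D, and the order A, C, E, D held on MEF and again feeder-free. The adjusted P-value of STRA6 was 0.0505 without feeder-free A but 0.0103 without MEF A. With both libraries of a line left out, the call was lost for line A (0.0988) and line D (0.0582) and held for line C (0.0208) and line E (0.0062), in a range of 6.0e-07 to 0.0988 over 16 alternatives. Leaving out the line with the lowest or the highest STRA6 level narrows the spread that this test measures, so nothing is read from those losses. Over all tested genes, 1865 were called with every line. Without line A, C, D or E, 928, 1090, 762 and 2670 were called. For the other members the adjusted P-value between lines was 0.136 (RARG), 0.222 (RARB), 0.242 (CRABP1), 0.339 (CYP26A1), 0.349 (CRABP2), 0.762 (RARA) and 0.813 (RBP4). The line means of CRABP1 spanned 1.98 and those of CYP26A1 1.23 on the log2 scale, and those of RARA and RBP4 0.23 and 0.19. A P-value above the threshold, with 1 library per line and condition, does not show that the lines were alike.

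The genes beside the members on the chromosome were examined next. The nearest tested gene on each side of each member gave 18 genes, and 0 were called higher and 0 lower in edgeR's test, while ITGB7, a leukocyte integrin chain 2097 bases from RARG, had the lowest adjusted P-value of them (log2 fold change 1.16, adjusted P-value = 0.0538). ISLR, 1965 bases from STRA6, had a log2 fold change of 0.04 (adjusted P-value = 0.973) and SEMA7A, on its other side, 0.21. Thus neither tested neighbour of STRA6 passed the test.

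The 5 genes whose log2 CPM profile over the 8 libraries was nearest to that of STRA6, by root mean square difference after centring, were SPRY4 (0.267), LIMS2 (0.267), ZFP36 (0.268), CNN1 (0.304) and PDE4D (0.317). SPRY4 is a feedback inhibitor of receptor tyrosine kinase signalling, LIMS2 a focal adhesion adaptor, ZFP36 an mRNA decay factor, CNN1 an actin-binding calponin and PDE4D a cyclic AMP phosphodiesterase. Their log2 fold changes lay between 1.60 for PDE4D and 2.15 for LIMS2, and none is a gene of the retinoid lists. The likeness includes the difference between conditions and is a description.

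Beyond the members, 35 other genes of the retinoid pathway are reported and 26 of them were tested. These are not the whole of the list drawn up, so the counts describe the reported genes and not the pathway. Of the 26, 0 were called higher and 0 lower in edgeR's test, and the median log2 fold change was 0.059 beside 0.0060 over all tested genes. Among the 26, 9 had an unadjusted p below 0.05 in that test, a larger share than the 21.6% of all tested genes. By role they were 4 of 7 coregulators, 2 of 3 receptors, 2 of 10 oxidation and reduction genes and the 1 breakdown gene tested. DESeq2 called 1 lower (CYP26B1), beside 517 in the whole table, and with the line as a replicate block 2 were called higher and 1 lower. Across the whole table the block raised the calls to 869 higher and 713 lower.

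Coregulators bind the receptors and switch their target genes on or off. The log2 fold change of the 7 reported coregulators was below 0, with a median of -0.34, and none was called. The coactivator NCOA3 had a log2 fold change of -0.584 (adjusted P-value = 0.0331), just short of the 1.5-fold threshold, and was not called.

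No partner receptor was called. RXRA had a log2 fold change of -0.48 (adjusted P-value = 0.0796) and RXRB of -0.49 (adjusted P-value = 0.0509). With the block, the adjusted P-values were 0.0278 and 0.0201, but neither reached the 1.5-fold threshold. RXRG had at most 4 counts in any library and was not tested. PPARD, another nuclear receptor listed for its binding of retinoic acid, had a log2 fold change of 0.32 (adjusted P-value = 0.549).

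Of the genes that oxidise or reduce retinoids, 10 of 12 were tested and none was called, with a median log2 fold change of 0.29. ALDH1A1, a retinaldehyde dehydrogenase, had 3.12, 0.436, 2.73 and 2.31 CPM on MEF in lines A, C, D and E and 7.46, 2.43, 4.28 and 4.81 CPM feeder-free. It was higher feeder-free in 4 of 4 lines, but its log2 fold change of 1.14 had an adjusted P-value of 0.273, which became 0.0228 with the block. DHRS4, a dehydrogenase/reductase, was the other gene called higher with the block (log2 fold change 1.13, adjusted P-value = 0.0470, against 0.349 without it). The retinol dehydrogenase RDH10 (0.29) and the retinal reductase DHRS3 (0.25) had small log2 fold changes that missed the threshold, and ALDH1A3 had at most 2 counts.

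CYP26B1, which breaks down retinoic acid as CYP26A1 does, stood in the opposite direction. It had 4.51, 2.25, 2.27 and 10.6 CPM on MEF in lines A, C, D and E, and 1.24, 1.81, 0.195 and 1.71 CPM feeder-free. It was lower feeder-free in 4 of 4 lines and without overlap, at a log2 fold change of -1.99 (SE 0.72) and an adjusted P-value of 0.149, which became 0.0191 with the block. Without MEF E, its highest library, the log2 fold change was -1.29. The direction of CYP26A1 and CYP26B1 differed in lines A, C and E, and both were lower feeder-free in line D. CYP26C1 had at most 6 counts. Among the reported carriers, 5 of 10 were tested and none was called, and TTR, which binds RBP4 in plasma, had at most 2 counts in any library.

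**Figure D5:**
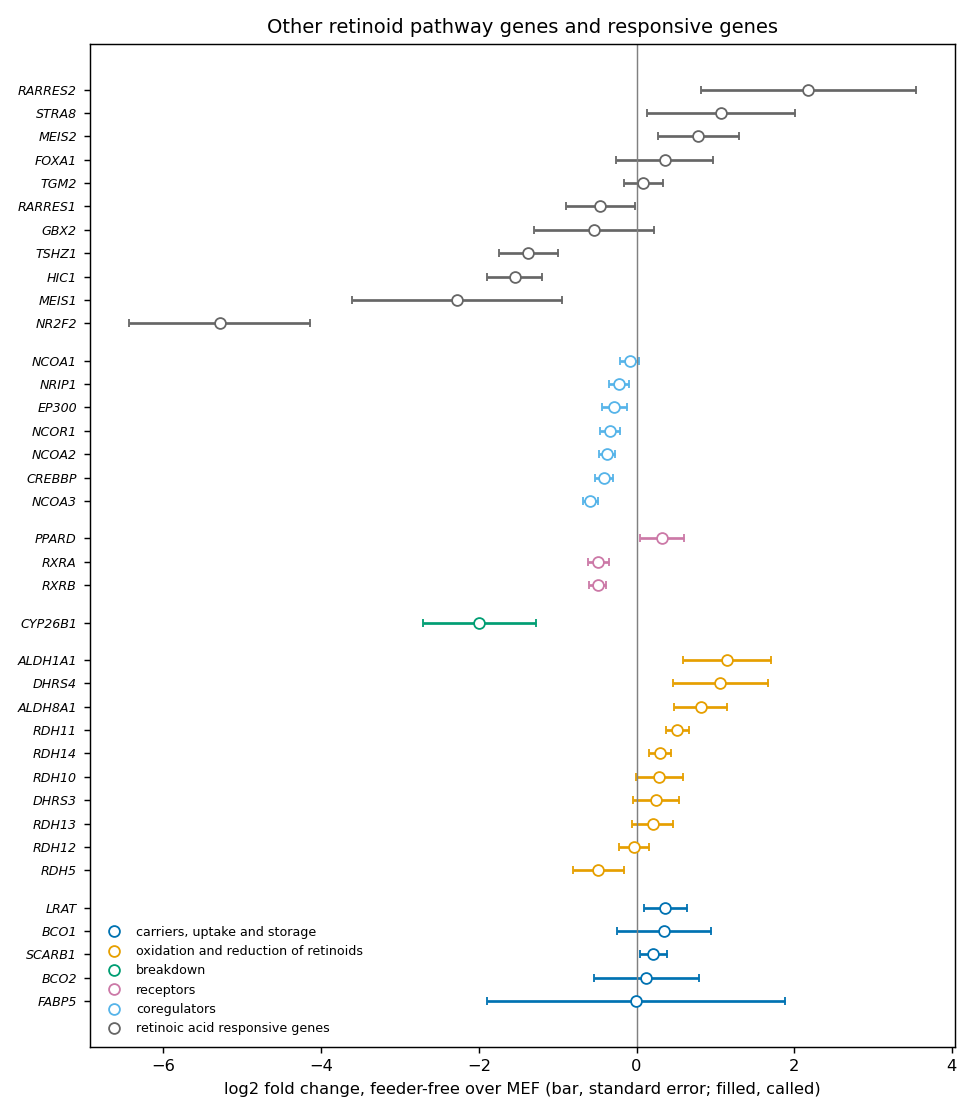
Log2 fold change of feeder-free over MEF with its standard error for the 26 other retinoid pathway genes, coloured by role, and the 11 retinoic acid responsive genes that were tested and are reported. No point is filled, as 0 of these genes were called, and the 7 coregulators shown lay to the left of 0.

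From a second list, 25 genes known to respond to retinoic acid in embryos or stem cells are reported, again not the whole list. Of these 11 were tested, and 0 were called higher and 0 lower in edgeR's test, with a median log2 fold change of -0.46. Among them 3 had an unadjusted p below 0.05, a share near the 21.6% of all tested genes, and DESeq2 called 3 lower, beside its 517 over all genes.

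With the block, the same 3 responsive genes as by DESeq2 were called lower, beside 713 of all 15744 tested genes. Each had an adjusted P-value above 0.05 in edgeR's test without the block. TSHZ1, a zinc finger gene, had a log2 fold change of -1.37 (adjusted P-value = 0.0793, and 0.00232 with the block), and HIC1, a transcriptional repressor, of -1.54 (adjusted P-value = 0.0538, and 0.00797 with the block). The orphan receptor NR2F2 had 24, 180, 196 and 17 counts on MEF in lines A, C, D and E and 0, 0, 8 and 6 feeder-free. Its MEF counts were highest in C and D, the lines in which COL1A2 and TWIST2 were highest, and the part of feeder RNA in them was not tested. The 10 HOX genes of the list were all too low to test. In 4 of them no library had a count, and the highest count was 16, reached by HOXA5 and HOXB4. HOXA5 had 4, 16, 12 and 12 counts on MEF and 0 in each feeder-free library.

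Other cell types that express retinoid genes were checked by their markers. Of 9 hypoblast and visceral endoderm genes, a lineage that makes RBP4 and TTR, 3 were tested, and AFP and APOB were at 0 in all libraries. Their summed level was 53.9 to 112 CPM on MEF and 129 to 241 CPM feeder-free, with the apolipoprotein gene APOA1 called higher (log2 fold change 1.53). APOA1 carried that sum, and without it the range was 4.59 to 14.2 CPM on MEF and 3.61 to 6.29 CPM feeder-free. The other tested hypoblast genes were not called, with log2 fold changes of -0.93 for FOXA2, lower in 4 of 4 lines, and -0.54 for HNF4A. For 7 trophoblast genes the sum was 22.3 to 38.3 CPM on MEF and 41.6 to 114 CPM feeder-free, with CDX2 and PAG2 at 0 throughout. The keratin gene KRT7 carried this sum, which without it was 1.63 to 3.76 and 0.642 to 4.22 CPM, and GATA2 (-1.43) and TFAP2A (-0.83) were lower in 4 of 4 lines without being called. The 5 neural genes summed to 46.4 to 184 and 93.0 to 334 CPM, and the 5 mesoderm genes to 2.31 to 8.30 and 7.60 to 11.8 CPM, with none called in the trophoblast, neural and mesoderm lists. NES carried the neural sum, which without it was 5.57 to 21.5 CPM on MEF and lower, at 0.743 to 4.75 CPM, feeder-free. Without EOMES the mesoderm sum was 1.54 to 2.69 CPM on MEF and 1.34 to 2.49 CPM feeder-free. The block called KRT7 and EOMES higher and GATA2 and ZIC1 lower, beside 869 higher and 713 lower of all 15744 tested genes. APOA1 and KRT7 were thus higher feeder-free in 4 of 4 lines, as STRA6 was, but the hypoblast and trophoblast sums without them overlapped between the conditions, and the part of such cells in the STRA6 values was not tested.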

How the data were processed

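The authors deposited raw counts per gene, as whole numbers, for 8 paired-end RNA-seq libraries. Per the study's methods, Trimmomatic removed adapters and poor bases, STAR placed the reads on ARS-UCD2.0, Picard and samtools took out optical duplicates and poorly mapped reads, and featureCounts made the counts (Subread 1.6.2 in the submitters' processing notes). Of 32640 genes, 3 (NEB, SYNE1, DST) had empty cells and were left out. Among counts of 1 to 20, 71.9% were even, so a read pair may have added more than 1 count. Total counts ran from 44268717 to 102351560.

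Counts were scaled by TMM and filtered with filterByExpr, and feeder-free was compared with MEF by edgeR 4.0.16 (R 4.3.3, limma 3.58.1) using the quasi-likelihood F test, Benjamini-Hochberg adjustment over all tested genes, an adjusted p below 0.05 and at least 1.5-fold. Lines were compared by the F test of 3 terms beside condition. Log2 CPM used a prior count of 2. The scripts were tested on simulated data. Condition and line letter came from the labels. Libraries of the same line deviated together (correlations 0.421 to 0.664), and as the letter is the cell line it pairs them, so the replicate block was fitted too. Libraries within a condition differed beyond sampling noise (at least 40.8 per degree of freedom in chi-square over 12 pairs). With 1 culture per line and condition, p-values of the fit on condition alone measure the spread between lines. Those of the block and of the line test rest on how the difference between conditions varied from line to line.

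Alternatives were RLE size factors, no scaling, no filter, DESeq2 1.42.0, the block and each library left out. Leaving out both libraries of each line in turn was added after seeing the data. The members, gene lists and tests were chosen with earlier results of these data known. Named genes are all members, each called gene reported of the 2 other lists, a set of core pathway genes whatever their change, and the 5 genes nearest to STRA6. Genes named outside this rule (NCOA3, DHRS4, PPARD, HIC1, TSHZ1, NR2F2, HOXA5, HOXB4, the flanking genes and the marker genes) were chosen after their values were seen. From the 2 other lists 3 genes are not reported here, for a reason unrelated to their values; they are in the fit over all genes and in no count over a list. Coordinates are gene spans from RefSeq ARS-UCD2.0, in which 30268 gene symbols and all 9 members were matched.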

Additional observations from a re-analysis of the deposited data

Results flagged for a closer look

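Across 28 groups of 4 libraries, 1 value stood apart from the other 3 by Dixon's criterion, where chance gives about 1 in 20 groups, or 1.4 here. ALDH1A1 was at -1.08 log2 CPM in MEF line C, with the other MEF libraries at 1.23 to 1.66. Without that library the log2 fold change of ALDH1A1 was 0.80 in place of 1.14, in the same direction.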

How the results depend on the processing

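The 8 tested members kept the direction of their difference under all 13 alternatives, with log2 fold changes of 1.86 to 2.30 for STRA6, 0.19 to 0.32 for RBP4, -2.85 to -0.90 for CRABP1, 0.07 to 0.39 for CRABP2, -0.52 to -0.35 for RARA, -2.05 to -1.79 for RARB, 0.33 to 0.68 for RARG and 0.78 to 1.36 for CYP26A1. Counts of called genes moved more. Genes called higher were 114, and 73 with no filter, 695 by DESeq2, 869 with the replicate block and 0 to 259 with 1 library left out. Genes called lower were 158, and 91 with no scaling, 97 with no filter, 517 by DESeq2, 713 with the block and 0 to 231 with 1 library left out. Of the other pathway genes reported, none was called, but the block called 2 higher (ALDH1A1, DHRS4), and 1 was called lower by DESeq2 and with the block (CYP26B1 in both) and 0 to 1 with 1 library left out (NCOA3). Responsive genes called lower were 0, and 3 by DESeq2 and 3 with the block (HIC1, NR2F2 and TSHZ1 in both) and 0 to 1 with 1 library left out (HOXA5). The highest leave-one-out counts of each came without feeder-free A, where CRABP1 joined STRA6 and RARB. Between lines, 1865 genes differed, and 3379 with no filter, 3888 by DESeq2, 928 without line A, 1090 without line C, 762 without line D and 900 to 2944 with 1 library left out. Of the members, 3 differed with no filter, 2 by DESeq2, 0 without line A or line D, 2 without line E and 0 to 2 with 1 library left out. The cause of these changes was not tested. The median log2 fold change of all genes was 0.0060 with TMM, 0.018 with RLE and 0.046 with no scaling, and 41.9, 44.5 and 47.7% of the calls were higher. ALDH1A2, RXRG, TTR, ALDH1A3, CYP26C1 and the HOX genes had too few counts for the test with all 8 libraries, and only differences above their floors could be seen.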
